A study of Rattus norvegicus with 6 samples.

Results

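The genes described here encode the machinery of the motile cilium and its axoneme. They were taken by symbol, as every gene whose name starts with Cfap, Dnah, Dnai, Rsph, Tekt or Spag, together with Foxj1, Ccdc153, Dynlrb2, Ak7 and Enkur. The rule uses symbols only, and it was set with earlier results of these data known. Of 29043 gene symbols with a row of their own in at least 1 library, 65 were such members. Foxj1, the transcription factor that switches on the motile cilium programme, was not analysed here. Cfap53, Spag1 and Spag7 stood only in rows that also named a neighbouring gene, so they were left out. A further 4 members, Cfap70, Cfap99, Rsph6a and Spag5, shared a row with a neighbour in some or all of the libraries and are described without a test. The 61 members left had a value in all 6 libraries.

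RNA was sequenced from tissue labelled prefrontal cortex of male F344 rats, an inbred strain, at 18 months of age. The 3 manipulated rats (replicates 4, 5 and 6) were given cranial osteopathic manipulation (a hands-on treatment of the skull) for 7 days under 1.5 to 3% isoflurane. The 3 untreated rats (replicates 1, 2 and 3) were also anaesthetised and received no manipulation. Each rat gave 1 library from a coronal slab of 1 mm, and the series addresses whether the manipulation goes with a change in gene expression in aged brain.

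A motile cilium is built on an axoneme of doublet microtubules. Outer and inner dynein arms drive its beat, radial spokes carry signals from a central pair of microtubules to the arms, and inner proteins line the doublets. In brain, motile cilia are known from ependymal cells, which line the ventricles and move cerebrospinal fluid, while neurons and astrocytes carry a primary cilium that lacks dynein arms. Expression is given as FPKM, a fragment number corrected for gene length and for library size. In a piece of tissue, fewer ependymal cells and less RNA per ependymal cell cannot be told apart.

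The libraries did not all carry the markers of the same brain regions. Markers of thalamic and hypothalamic neurons summed to 15.3, 15.6 and 79.4 FPKM in manipulated libraries and to 140, 165 and 205 FPKM in untreated ones. Markers of striatal neurons summed to 168, 184 and 71.1 FPKM in manipulated libraries and to 41.5, 40.7 and 64.0 FPKM in untreated ones. The thalamic kinase gene Prkcd had 3.74 to 4.50 FPKM in manipulated and 29.5 to 40.8 FPKM in untreated libraries, while the neuropeptide genes Oxt and Avp were at 46.5 and 23.4 FPKM in manipulated replicate 6 and under 5 FPKM in the other manipulated libraries, against at least 16.2 and 25.8 FPKM in untreated ones. In limma 6 of the 9 thalamic and hypothalamic markers passed an adjusted p of 0.05, all lower, and 0 of the 8 striatal ones did, with 7 higher at an unadjusted p under 0.05. The striatal genes Ppp1r1b and Scn4b were higher in every manipulated library, at 36.0 to 101 and 12.2 to 18.6 FPKM, against 21.3 to 34.9 and 5.09 to 6.17 FPKM in untreated ones. Cortical neuron markers were present in all 6 libraries, led by Slc17a7, Tbr1 and Neurod6, at 77.0 to 118 FPKM in manipulated and 102 to 151 FPKM in untreated ones, and 0 of 8 passed (limma; 1 lower at an unadjusted p under 0.05, Neurod6). Germ cell markers of the testis, where many of the members are also used, summed to at most 0.101 FPKM in a manipulated and 0.988 FPKM in an untreated library (Sycp3, Tnp2 and Ddx4 the highest). Depth was read from the width of the deposited intervals, as an implied fragment number that is no read total. It was 3.40e+07 to 4.29e+07 in manipulated and 3.47e+07 to 3.86e+07 in untreated libraries. Most genes had lower FPKM in manipulated libraries: the median log2 fold change was -0.36 over 10657 genes whose mean reached 1 FPKM, on the log2(FPKM + 1) scale. A median-ratio scaling, which sets the typical gene to the same level in every library, moved that median to 0.0035. Its factors ran from 0.653 in manipulated replicate 6, the lowest, to 1.34 in untreated replicate 1. Member values are therefore given as deposited first, and under that scaling where the reading differs. The regional make-up of the slabs moves with treatment, and its part in any result on the members was not tested.

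Most members were expressed at a low level. Of the 61 members, 16 had a mean of at least 1 FPKM, 32 lay between 0.1 and 1 FPKM and 13 lay below. Cfap97d1, Dnah17 and Spag11a were listed at 0 in every library, and 46 members were above 0 in all 6. The 4 members above 5 FPKM were Cfap36, Spag9, Cfap298 and Cfap20. Cfap36, which binds the small GTPase Arl3, and Spag9, a scaffold for kinases and motor proteins, are not parts of the axoneme. For that reason the members were read in a pair of groups: 53 axonemal members, which build or assemble the motile cilium, and 8 other Cfap and Spag genes. This split was made by known role, also with earlier results of these data known. Cfap298 and Cfap20 together held 33.4% of the summed mean FPKM of the axonemal group, and the 5 highest members held 52.6%.

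Motile cilium genes in vertebrates are known targets of RFX transcription factors, which bind a palindrome called the X-box. Promoters of 52 members were found in RefSeq (build GRCr8), each running from 250 bases before the start of the gene to 50 after it. An arm of the X-box, GTTGCC, was searched on both strands, so that it also counts as GGCAAC, and it overlaps the full palindrome. It was present in 17 of 52 member promoters, or 32.7%, and in 12.3% of 19005 protein-coding promoters of the same length. Among axonemal members it was found in 15 of 46, or 32.6%, and among the other Cfap and Spag members in 2 of 6, or 33.3%. The full palindrome, an arm GTTNCC and an arm GGNAAC with a gap of 2 bases, was found in 1 member, Cfap298, and in 0.347% of all promoters. With a gap of 1 base it was found in no member and in 0.184% of all. A forkhead motif, TGTTTAC, of the kind bound by Foxj1 was found in 2 members, Cfap20 and Tekt3, or 3.85%, against 3.33% of all promoters. These are matches of letters in a window, not shown binding sites. The 4 promoters below show the arm in members with different roles, with each match in capitals. Cfap298, an assembly factor of dynein arms, lies on the minus strand with its promoter at chr11:43677333-43677632. Spag6l, a central apparatus protein, is on the plus strand with its promoter at chr11:97677590-97677889. The promoters of Tekt2, a tektin at chr5:143907675-143907974, and Cfap161, a doublet inner protein at chr1:147177772-147178071, are both on the minus strand and hold 2 matches each.
Cfap298: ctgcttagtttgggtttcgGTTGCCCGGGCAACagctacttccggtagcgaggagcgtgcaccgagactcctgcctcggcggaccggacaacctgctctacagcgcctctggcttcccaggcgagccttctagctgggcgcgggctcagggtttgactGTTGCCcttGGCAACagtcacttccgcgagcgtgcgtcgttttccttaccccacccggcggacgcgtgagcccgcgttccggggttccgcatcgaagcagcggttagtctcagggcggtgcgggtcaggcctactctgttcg
Spag6l: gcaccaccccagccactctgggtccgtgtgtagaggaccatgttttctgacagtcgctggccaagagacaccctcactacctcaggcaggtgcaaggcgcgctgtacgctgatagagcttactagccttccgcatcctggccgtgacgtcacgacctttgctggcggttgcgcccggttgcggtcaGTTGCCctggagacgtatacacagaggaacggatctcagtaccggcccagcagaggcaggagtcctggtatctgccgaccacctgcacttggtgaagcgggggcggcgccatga
Tekt2: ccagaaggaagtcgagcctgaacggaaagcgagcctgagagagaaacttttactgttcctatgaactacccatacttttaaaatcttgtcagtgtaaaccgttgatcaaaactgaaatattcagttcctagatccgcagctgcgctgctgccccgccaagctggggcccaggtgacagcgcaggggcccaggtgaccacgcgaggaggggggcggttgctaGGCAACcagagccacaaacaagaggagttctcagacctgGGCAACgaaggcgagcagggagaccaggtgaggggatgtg
Cfap161: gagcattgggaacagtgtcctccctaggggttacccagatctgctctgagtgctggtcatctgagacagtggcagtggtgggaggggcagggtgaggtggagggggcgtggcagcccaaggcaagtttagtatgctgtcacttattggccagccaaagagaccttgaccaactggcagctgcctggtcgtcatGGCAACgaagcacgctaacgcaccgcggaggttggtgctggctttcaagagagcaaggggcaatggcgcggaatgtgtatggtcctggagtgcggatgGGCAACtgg
The 4 matches of Cfap298 form a full palindrome with a gap of 2 bases and a second, wider pair. Its transcript was the most abundant of the axonemal group, and a relation between the arm and expression was not tested.

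No member changed between manipulated and untreated rats at an adjusted p under 0.05 (limma, Benjamini-Hochberg adjustment over all tested genes). Among the 10657 genes tested with a mean of at least 1 FPKM, 38 passed, which is 0.357%, and 0 of the 16 members among them did. At an unadjusted p under 0.05 (limma) it was 1 of 16 members, Cfap126, against 15.1% of all genes. When genes down to a mean of 0.1 FPKM were included, with a pseudocount of 0.1, 37 of 14847 genes passed, or 0.249%, and 0 of 48 members. There the unadjusted p was under 0.05 for 3 of the 48 members, against 14.5% of all genes. After median-ratio scaling it was again 0 of 48, against 0.357% of all genes, with 6 of the 48 at an unadjusted p under 0.05, against 11.1% of all genes. In data simulated with 3 libraries a group, the test at 1 FPKM recovered 14% of genes given a log2 change of 1 and 79.2% of those given 2. The test at 0.1 FPKM recovered 0% and 10.2% of them, so in that fit a missed threshold says little about the size of a change. The changed genes were drawn from all genes of each fit, and each gene was given the spread of a gene drawn at random. Recovery of low genes alone was therefore not measured. The deposited FPKM intervals of manipulated and untreated libraries were apart for 0 of the 61 members.

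Axonemal transcripts stood at a like summed level in both groups while most other genes were lower in manipulated libraries. The 53 axonemal members summed to 45.4, 49.4 and 46.6 FPKM in manipulated libraries and to 55.8, 41.6 and 46.8 FPKM in untreated ones. The ratio of means was 0.981, and the untreated libraries held both the highest and the lowest sum. Under median-ratio scaling the ratio was 1.39. The 8 other Cfap and Spag members summed to 39.9, 42.4 and 22.0 FPKM in manipulated libraries and to 53.4, 43.1 and 60.6 FPKM in untreated ones. All 3 manipulated sums lay below all 3 untreated sums in this group as deposited, by a narrow margin of 42.4 against 43.1 FPKM. Taken singly, 23.3% of all genes with a mean of at least 0.1 FPKM lay lower in this way. The ratio was 0.665 as deposited and 0.894 after scaling, where Cfap36 and Spag9, the highest members of this group, overlapped between groups.

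Counted by gene, 23 of the 42 axonemal members with a mean of at least 0.1 FPKM had a log2 fold change above 0, and 19 below. Their median was 0.09 on the log2(FPKM + 0.1) scale, against -0.44 over all 14847 genes, of which 16.2% were above 0. Under median-ratio scaling, 36 of the 42 were above 0 with a median of 0.41, against 49.1% of all genes and a median of -0.01. Among the 6 other Cfap and Spag members of that level, 1 was above 0 as deposited and 2 after scaling, with medians of -0.51 and -0.06. The 12 axonemal members with a mean of at least 1 FPKM lay lower, with 4 above 0 as deposited. Their median was -0.15 on the log2(FPKM + 1) scale, against -0.36 over all 10657 genes tested there. A pseudocount draws the fold changes of low genes toward 0, and members and all genes were not matched for level.

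**Figure D1:**
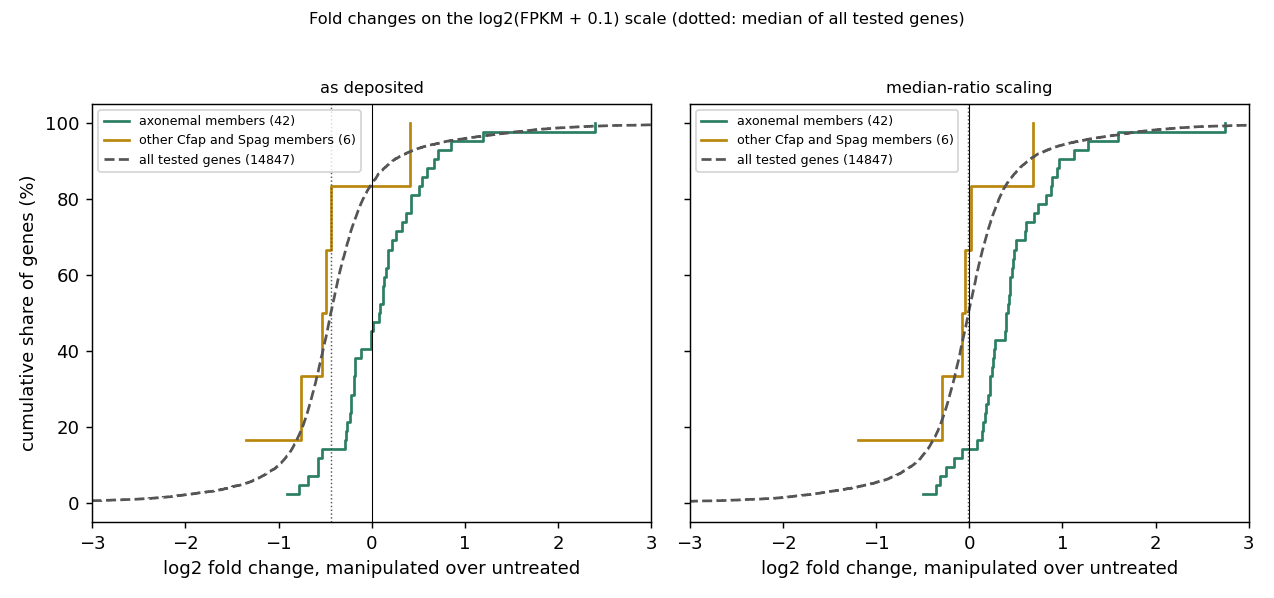
Cumulative share of genes (percent) against the log2 fold change of manipulated over untreated libraries, on the log2(FPKM + 0.1) scale, for 42 axonemal members, 6 other Cfap and Spag members and all 14847 tested genes, as deposited (left) and after median-ratio scaling (right). The dotted line is the median of all tested genes, and the axonemal curve lies to its right over most of its length in both panels, with a median of 0.09 as deposited and 0.41 after scaling.

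The groups did not overlap for 9 of the 48 members as deposited. All 3 manipulated values lay above all 3 untreated values in 6 of them (Ak7, Cfap44, Dnah11, Dnai2, Spag6l and Tekt3), a pattern shown by 1.29% of all tested genes. They lay below in 3 (Dnah9, Spag11bl and Spag9), against 23.3% of all genes. After scaling, 12 members lay above, against 10.0% of all genes, and 1 below, Spag11bl, against 9.44%. The 6 members that lay above as deposited were again among the 12.

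**Figure D2:**
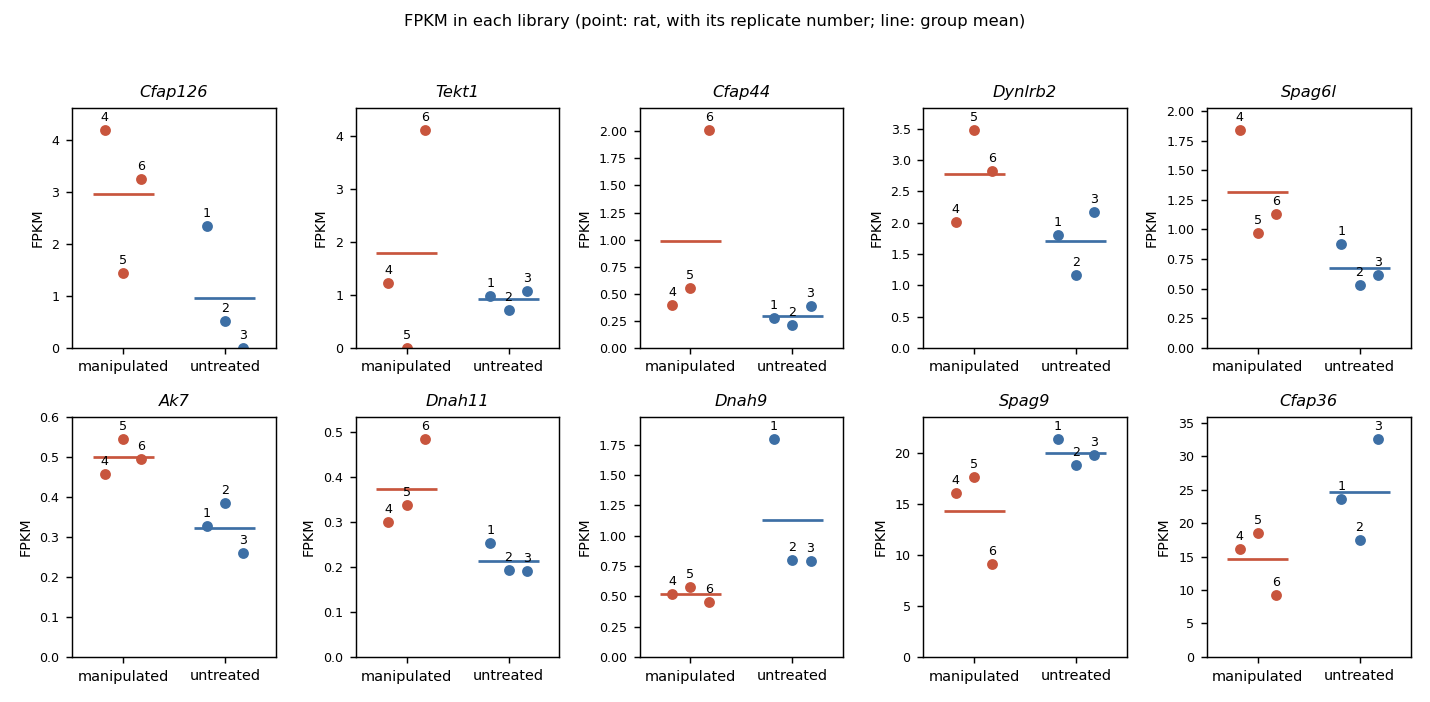
FPKM (vertical axes, from 0) of 10 members in each library, manipulated left of untreated; each point is 1 rat with its replicate number and each line is a group mean. Ak7, Dnah11, Cfap44 and Spag6l had no overlap between groups with manipulated rats higher, Dnah9 and Spag9 had none with manipulated rats lower, and single libraries set the means of Tekt1 and Cfap44.

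Dynein arm genes were mixed, and the outer arm heavy chains went in different directions. Dnah9, an outer arm heavy chain of the distal axoneme at chr10:52351181-52711208 (Rnor_6.0), had 0.519, 0.574 and 0.453 FPKM in manipulated libraries and 1.80, 0.798 and 0.788 FPKM in untreated ones. Its log2 fold change was -0.90 with a standard error of 0.38 (adjusted p = 0.34, limma). All manipulated values were lower as deposited, and untreated replicate 1 was the highest of all. After median-ratio scaling the groups overlapped, with a log2 fold change of -0.49 ± 0.29 (SE). Dnah11, the outer arm heavy chain of the proximal axoneme, had 0.300, 0.337 and 0.484 FPKM in manipulated libraries and 0.252, 0.194 and 0.190 FPKM in untreated ones. Here all manipulated values were higher, with a log2 fold change of 0.59 ± 0.35 (SE; adjusted p = 0.367, limma). The intermediate chain Dnai2 had 0.122, 0.148 and 0.112 FPKM in manipulated and 0.0787, 0.0733 and 0.0742 FPKM in untreated libraries, again without overlap (adjusted p = 0.537, limma). Its partner Dnai1 was listed at 0 in every library except manipulated replicate 6, at 0.433 FPKM. Dnah5, the best known outer arm chain, had means of 0.196 ± 0.0161 FPKM in manipulated and 0.185 ± 0.0882 FPKM in untreated libraries (SD, n = 3). The span of its row differed 1.84 times between libraries and its deposited interval reached 34.8 FPKM in untreated replicate 2, so these means are uncertain. Dnah8, which is used in sperm, stayed between 0.0114 and 0.0204 FPKM in manipulated and between 0.0367 and 0.0654 FPKM in untreated libraries, too low to be tested.

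Inner arm heavy chains overlapped between groups without exception. Dnah12 had 0.395, 0.352 and 0.594 FPKM in manipulated libraries and 0.706, 0.570 and 0.363 FPKM in untreated ones. Dnah2 had 0.315, 0.302 and 0.191 FPKM in manipulated libraries and 0.505, 0.147 and 0.476 FPKM in untreated ones. For both, untreated replicate 1 was highest, and the log2 fold changes were -0.23 ± 0.36 and -0.28 ± 0.46 (SE; limma adjusted p = 0.682 for Dnah12 and 0.696 for Dnah2). The summed inner arm FPKM averaged 1.13 ± 0.0591 in manipulated and 1.35 ± 0.438 in untreated libraries (SD, n = 3), and that of the outer arms 1.37 ± 0.302 in manipulated and 1.65 ± 0.722 in untreated libraries. The untreated spread was the wider in both classes.

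Of the factors that assemble the arms in the cytoplasm, Cfap298 was well above any dynein arm member in FPKM and Cfap300 was near the arm members. Cfap298 had 8.02, 10.7 and 5.59 FPKM in manipulated libraries and 7.77, 10.5 and 10.3 FPKM in untreated ones. Cfap300 had 0.750, 1.25 and 1.40 FPKM in manipulated libraries and 1.24, 0.730 and 0.795 FPKM in untreated ones. Both overlapped between groups, at -0.23 ± 0.28 for Cfap298 and 0.15 ± 0.28 for Cfap300 on the log2 scale (SE; adjusted p = 0.574 and 0.712, limma). The sign for Cfap298 turned under median-ratio scaling, to 0.18.

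The 3 most abundant radial spoke members were lower on average in manipulated libraries as deposited, and all 3 overlapped between groups. Rsph9, a spoke head protein, had 1.67, 2.75 and 3.17 FPKM in manipulated libraries and 4.56, 2.80 and 3.55 FPKM in untreated ones. Rsph1, also of the spoke head, had 1.44, 1.80 and 1.04 FPKM in manipulated libraries and 2.68, 1.24 and 1.30 FPKM in untreated ones. Untreated replicate 1 was highest for both, and without it the log2 fold change of Rsph1 was 0.08 in place of -0.15. Rsph10b had 0.678, 1.16 and 1.65 FPKM in manipulated libraries and 1.59, 2.52 and 1.50 FPKM in untreated ones (adjusted p = 0.372, limma). The row of Rsph9 overlapped that of Mrps18a, a mitochondrial ribosome gene with higher FPKM in every library, so its fragments may be in part those of the neighbour. Rsph4a, another protein of the ciliary spoke head, averaged 0.278 ± 0.0833 FPKM in manipulated and 0.182 ± 0.0532 FPKM in untreated libraries (SD, n = 3). The sum over 7 radial spoke members had a ratio of 0.760 as deposited and 1.08 after scaling. Rsph6a, the sperm form of the spoke head protein, stood alone in its row in 4 libraries, at 0.177 and 0.394 FPKM in manipulated replicates 5 and 6 and at 1.01 and 0.757 FPKM in untreated replicates 2 and 3.

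Central apparatus genes also differed among themselves. Spag6l, a core protein of the central pair, is annotated at chr11:88424414-88508628 (Rnor_6.0), and it had 1.84, 0.971 and 1.13 FPKM in manipulated libraries and 0.878, 0.528 and 0.614 FPKM in untreated ones. All manipulated values were higher, with a log2 fold change of 0.85 ± 0.35 (SE; unadjusted p = 0.0431 and adjusted p = 0.34, limma). After scaling it was 1.27 ± 0.29, with an adjusted p of 0.211 (limma), the lowest of any member. Spag6 is a near copy of it, so fragments could be split between them, and it had 0.105 to 0.170 FPKM in manipulated and 0.0946 to 0.163 FPKM in untreated libraries. Cfap69 had 4.03, 4.85 and 1.96 FPKM in manipulated libraries and 5.32, 2.91 and 3.75 FPKM in untreated ones, with full overlap. Manipulated replicate 6 was the lowest for Cfap69, and the log2 fold change of -0.14 became 0.15 without it. Cfap74 had 0.663, 0.787 and 0.997 FPKM in manipulated libraries and 3.98, 0.939 and 0.796 FPKM in untreated ones. Its high value in untreated replicate 1 had a deposited interval up to 44.7 FPKM, and the span of its row changed between libraries. Spag16 was listed at 0 in all 3 untreated libraries and in manipulated replicate 4, and at 0.115 and 0.0678 FPKM in manipulated replicates 5 and 6.

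Proteins of the doublet lumen included the member with the highest log2 fold change, Cfap126, and members listed at 0 in some libraries. Cfap126, known as Flattop and needed to position basal bodies, had 4.20, 1.44 and 3.25 FPKM in manipulated libraries, against 2.35 and 0.525 FPKM in untreated replicates 1 and 2 and a listed 0 in untreated replicate 3. The groups overlapped through manipulated replicate 5 and untreated replicate 1. On the log2(FPKM + 1) scale its fold change was 1.13 ± 0.45 (SE; unadjusted p = 0.0334 and adjusted p = 0.326, limma), the highest of the 16 members tested there. Tekt1, a tektin filament protein, had 1.22 and 4.12 FPKM in manipulated replicates 4 and 6 and was listed at 0 in replicate 5, against 0.973, 0.710 and 1.07 FPKM in untreated libraries. Its direction depended on the pseudocount, at 0.24 with 1 and -0.29 with 0.1. Cfap20, which lies at the inner junction of the doublet, had 7.34, 7.23 and 4.98 FPKM in manipulated libraries and 7.61, 5.61 and 9.79 FPKM in untreated ones. Enkur, an inner protein that binds calcium channels in sperm of mice, had 1.32, 2.23 and 2.00 FPKM in manipulated libraries and 2.67, 1.59 and 2.02 FPKM in untreated ones. Neither differed beyond its spread (adjusted p = 0.62 for Cfap20 and 0.735 for Enkur, limma), and both turned sign under scaling. Of the low tektins, Tekt3 lay without overlap at 0.115 to 0.169 FPKM in manipulated and 0.0973 to 0.108 FPKM in untreated libraries, while Tekt2 and Tekt5 overlapped. Spag8 was listed at 0 in 4 libraries and at 0.690 and 0.668 FPKM in manipulated replicate 6 and untreated replicate 2. The row of Spag8 overlapped that of Npr2 in 4 libraries, with Npr2 at 1.49 to 3.15 FPKM.

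The 11 remaining ciliary genes had a ratio of summed means of 1.45 as deposited and 2.10 after scaling, and Dynlrb2 and Cfap44 made up most of the difference. Without both, the ratio was 1.12 as deposited and 1.57 after scaling, and without manipulated replicate 6 it was 1.35 and 1.66. Dynlrb2, a dynein light chain of ciliated cells, had 2.01, 3.48 and 2.82 FPKM in manipulated libraries and 1.80, 1.16 and 2.17 FPKM in untreated ones. The groups overlapped only between manipulated replicate 4 and untreated replicate 3, and the log2 fold change was 0.48 ± 0.25 (SE; adjusted p = 0.333, limma). After scaling they no longer overlapped, at 2.13 to 4.32 in manipulated and 1.21 to 1.74 in untreated libraries, with a log2 fold change of 0.80 ± 0.22 (SE; unadjusted p = 0.0103 and adjusted p = 0.276, limma). Ak7, an adenylate kinase of motile cilia, had 0.458, 0.547 and 0.496 FPKM in manipulated libraries and 0.328, 0.385 and 0.259 FPKM in untreated ones. Its spread was narrow on both sides, and its log2 fold change was 0.51 ± 0.31 (SE; adjusted p = 0.377, limma). Cfap44, part of the tether of an inner arm motor, had 0.397, 0.556 and 2.02 FPKM in manipulated libraries and 0.279, 0.209 and 0.387 FPKM in untreated ones. The groups did not overlap, but the lowest manipulated value, 0.397 FPKM, was close to the highest untreated value, 0.387 FPKM. For Cfap44, manipulated replicate 6 was far above its fellows. Its partner Cfap43 overlapped, at 0.505 to 0.666 FPKM in manipulated and 0.329 to 0.923 FPKM in untreated libraries. Ccdc153, of the nexin link between doublets, had 0.813, 0.703 and 0.573 FPKM in manipulated libraries and 0.615, 0.810 and 0.668 FPKM in untreated ones. Its means, 0.697 FPKM in manipulated and 0.698 FPKM in untreated libraries, were nearly equal (adjusted p = 0.99, limma), and its row span changed between libraries. Cfap99 had 3.83, 0.344 and 1.24 FPKM in manipulated libraries and 1.44 FPKM in untreated replicate 1, and it shared its row with Rnf4 in the other untreated libraries. Cfap70 had 1.35, 1.42 and 0.969 FPKM in manipulated libraries and 1.45 and 1.30 FPKM in untreated replicates 2 and 3. Cfap58 and Cfap58l1, near copies that could share fragments, stayed under 0.03 FPKM.

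Of the 6 other Cfap and Spag genes with a mean of at least 0.1 FPKM, 1 had a log2 fold change above 0, close to the share of 16.2% over all tested genes. Spag9 had 16.1, 17.7 and 9.09 FPKM in manipulated libraries and 21.4, 18.8 and 19.8 FPKM in untreated ones. The groups did not overlap as deposited, with a log2 fold change of -0.51 ± 0.30 (SE; adjusted p = 0.348, limma), and overlapped after scaling, at -0.07. Cfap36 had 16.2, 18.5 and 9.24 FPKM in manipulated libraries and 23.7, 17.5 and 32.6 FPKM in untreated ones, at -0.72 ± 0.35 (SE; adjusted p = 0.328, limma). Manipulated replicate 6 was the lowest for both. Cfap410, a protein of the base of the cilium, had 2.90, 3.52 and 2.33 FPKM in manipulated libraries and 4.48, 3.05 and 4.41 FPKM in untreated ones. Cfap97 had 4.36, 2.33 and 1.15 FPKM in manipulated libraries and 3.01, 3.15 and 3.56 FPKM in untreated ones, so the manipulated libraries held both extremes. Spag11bl, related to an antimicrobial peptide gene of the epididymis, was at 0.0908 FPKM in manipulated replicate 4 and listed at 0 in replicates 5 and 6, against 0.238, 0.239 and 0.175 FPKM in untreated libraries. Spag5, a mitotic spindle protein, had rows of its own in 3 libraries, at 0.974 and 0.291 FPKM in manipulated replicates 4 and 6 and 0.991 FPKM in untreated replicate 1, beside shared rows in all 6.

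Read by library, the members followed a pattern that depended on how the libraries were scaled. As deposited, untreated replicate 1 was the highest library for 16 of the 48 members, and manipulated replicate 6 for 8. After scaling, manipulated replicate 6 was highest for 25 and untreated replicate 1 for 5. The deviation of log2(FPKM + 0.1) from the mean of each gene over 6 libraries was also read, as deposited. In untreated replicate 1 its median was 0.39 over all genes with a mean of at least 0.1 FPKM and 0.15 over the 42 axonemal members. In manipulated replicate 6 it was -0.57 over all such genes and 0.09 over the axonemal members. Manipulated replicate 6 had the lowest median FPKM of all tested genes, 2.75, whereas its axonemal sum of 46.6 FPKM lay between those of the other manipulated libraries. After scaling, the axonemal sums were 48.1, 50.1 and 71.4 in manipulated libraries and 41.6, 43.3 and 37.5 in untreated ones, so that all manipulated sums were higher and replicate 6 stood far above its fellows. Without manipulated replicate 6 the summed axonemal ratio was 0.986 as deposited and 1.20 after scaling, in place of 1.39.

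**Figure D3:**
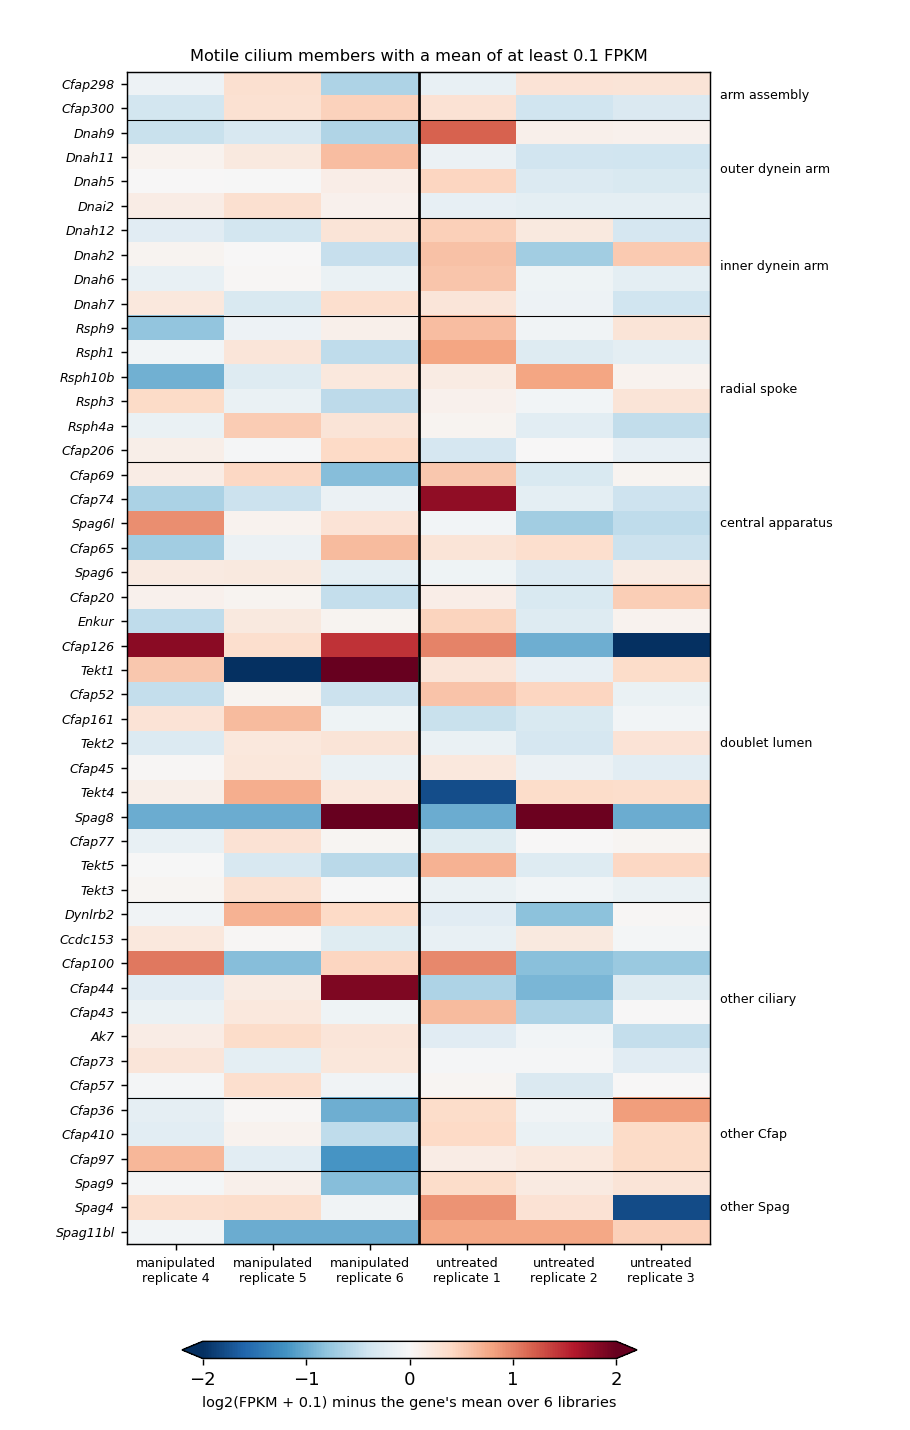
Rows are the 48 members with a mean of at least 0.1 FPKM, grouped by role, and columns are the 3 manipulated and then the 3 untreated libraries; colour is log2(FPKM + 0.1) minus the mean of the gene over 6 libraries, with red above and blue below. Few rows split by group, untreated replicate 1 is the reddest column as the highest library of 16 members, and the deepest colours belong to members listed at 0 in some libraries, such as Tekt1, Spag8 and Cfap126.

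Other genes of the motile cilium that carry different names stood much as the members did. Of 83 listed genes, such as dynein light chains, nexin link proteins and assembly factors, 60 could be read and 52 had a mean of at least 0.1 FPKM. None of the 52 passed an adjusted p of 0.05 in limma, 2 higher and 2 lower had an unadjusted p under 0.05, 26 had a log2 fold change above 0 and 26 below, with a median of -0.01. After scaling 39 were above 0, with a median of 0.34. Their sum was 41.1, 49.0 and 41.4 FPKM in manipulated and 59.1, 40.8 and 50.3 FPKM in untreated libraries. Dnal1, a light chain of the outer arm, led the list with 6.46, 6.23 and 4.82 FPKM in manipulated libraries and 7.70, 8.14 and 10.5 FPKM in untreated ones. Its groups did not overlap (adjusted p = 0.326, limma). Ccdc39, a ruler of doublet spacing, had 4.65, 4.19 and 2.76 FPKM in manipulated libraries and 3.94, 3.93 and 2.26 FPKM in untreated ones. Ccdc65 of the nexin link had 3.10 to 4.05 FPKM in manipulated libraries and was listed at 0 in untreated replicate 2, beside 4.25 and 4.58 FPKM in the other untreated ones.

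Genes of intraflagellar transport and the primary cilium, which neurons and glia also use, stood near the typical gene. Of 31 tested, 4 were above 0 and 27 below, with a median log2 fold change of -0.36, equal at this rounding to that of all 10657 genes, and none passed an adjusted p of 0.05 in limma (6 lower at an unadjusted p under 0.05). After scaling their median was -0.04. Arl3, a small GTPase that releases cargo into cilia, had 18.2 to 33.2 FPKM in manipulated and 24.9 to 30.5 FPKM in untreated libraries. The kinesin adaptor Kifap3 had 11.3 to 38.2 FPKM in manipulated and 15.8 to 25.9 FPKM in untreated libraries, and the transport subunit Ift20 had 8.16 to 12.6 FPKM in manipulated and 8.32 to 18.8 FPKM in untreated ones. All of these overlapped between groups. Genes of the multiciliation programme summed to 12.1, 11.8 and 8.76 FPKM in manipulated and 18.8, 10.5 and 16.2 FPKM in untreated libraries, and 0 of the 4 tested passed in limma (2 lower at an unadjusted p under 0.05). Rfx3, a factor that binds the X-box, had 2.34 to 2.75 FPKM in manipulated and 2.49 to 4.13 FPKM in untreated libraries. Its relative Rfx4 had 0.973 to 3.06 FPKM in manipulated and 1.27 to 2.75 FPKM in untreated libraries, and both overlapped between groups. Tfdp1, a partner of E2F factors, had 2.44 to 3.99 FPKM in manipulated and 4.29 to 6.44 FPKM in untreated libraries, without overlap (adjusted p = 0.326, limma).

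Of the markers of ependymal cells outside the axoneme, 5 could be read, and they summed to 94.1, 92.1 and 67.5 FPKM in manipulated and 126, 96.1 and 128 FPKM in untreated libraries. Nnat, an imprinted gene that neurons also express, made up most of this, with 52.4 to 79.8 FPKM in manipulated and 77.3 to 108 FPKM in untreated libraries and a log2 fold change of -0.47, near the median of all genes. Vim, an intermediate filament gene of ependyma and other glia and vessels, had 8.44, 10.1 and 8.39 FPKM in manipulated and 18.5, 10.8 and 12.7 FPKM in untreated libraries. Rarres2, a secreted chemoattractant, had 4.67 to 6.94 FPKM in manipulated and 6.70 to 8.61 FPKM in untreated libraries. Tmem212, a gene of ciliated cells, had 1.07, 2.40 and 1.88 FPKM in manipulated and 1.00, 0.932 and 0.860 FPKM in untreated libraries, with every manipulated value higher. None of the 4 tested passed an adjusted p of 0.05 in limma, and 0 had an unadjusted p under 0.05. The median of the 4 was -0.43 as deposited, with 1 above 0, and 0.0023 after scaling, with 2 above 0 and 1 higher at an unadjusted p under 0.05.

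Markers of choroid plexus epithelium, the secretory tissue of the ventricles, summed to 272, 1321 and 1077 FPKM in manipulated and 528, 499 and 492 FPKM in untreated libraries. Ttr, which carries thyroid hormone, made up most of it, with 233, 1211 and 976 FPKM in manipulated and 452, 452 and 462 FPKM in untreated libraries. Enpp2, a secreted lipid enzyme, had 30.4, 70.4 and 62.9 FPKM in manipulated and 59.3, 35.6 and 20.2 FPKM in untreated libraries, and Folr1, a folate carrier, had 2.75 to 6.56 FPKM in manipulated and 1.86 to 3.26 FPKM in untreated ones. Replicates 5 and 6 were the high ones among the manipulated libraries. None of the 9 markers tested at 1 FPKM passed an adjusted p of 0.05 in limma, all 9 had a log2 fold change above 0, and 3 were higher at an unadjusted p under 0.05. Of the 12 read at 0.1 FPKM, all 12 were above 0, none passed and 1 was higher at an unadjusted p under 0.05 (limma). Kcnj13, a potassium channel of the plexus, was listed at 0 in manipulated replicate 4 and in all untreated libraries, against 6.47 FPKM in manipulated replicate 5 and 7.02 FPKM in replicate 6. Among manipulated libraries replicate 4 was lowest and replicate 5 highest for both the choroid plexus and the axonemal sum as deposited, while among untreated libraries the choroid plexus sums were nearly equal and the axonemal sums were not. The part of choroid plexus RNA in the axonemal values was not tested.

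**Figure D4:**
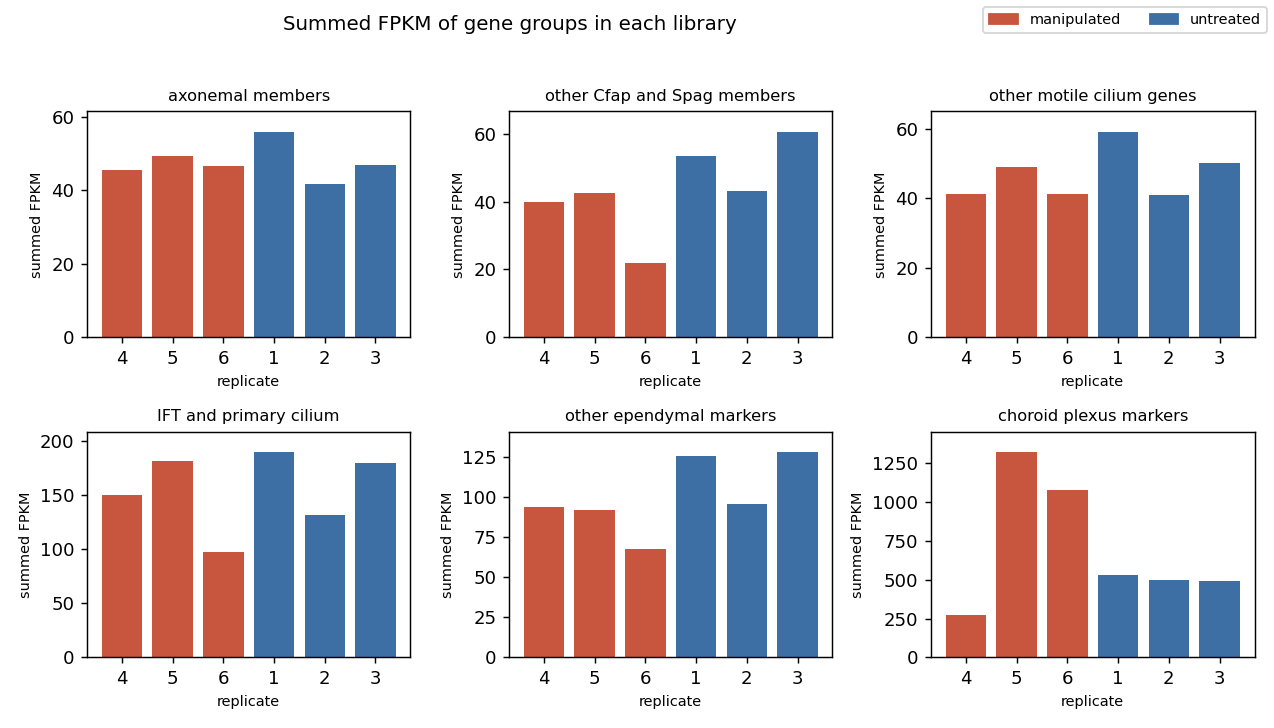
Bars give the summed FPKM (vertical axes, from 0) of 6 gene groups in each library, the manipulated replicates 4, 5 and 6 left of the untreated replicates 1, 2 and 3. Axonemal members stand at 41.6 to 55.8 FPKM in all 6 libraries, other Cfap and Spag members are lower in every manipulated library, and choroid plexus markers reach 1321 and 1077 FPKM in manipulated replicates 5 and 6.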

How the data were processed

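The submitters' processing notes name STAR 2.7.3a, Cufflinks and the rat genome Rnor_6.0. The authors deposited FPKM, and per the file headers each table gives an FPKM, an interval and a status per row. Counts, strand and annotation release were not at hand, so depth was only estimated from interval widths of unnamed loci 400 to 800 bases long, and intervals speak for a library, not for the spread between rats. Genes on opposite strands cannot be told apart.

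Rows were matched by symbol and summed per library. Among 30076 symbols, 3254 that were joined with a neighbour in some library were left out, as were those at several places, missing from a library or with failed estimates, and 26641 remained. The two-sided limma test (version 3.58.1, under R 4.3.3, trend on mean expression) used log2(FPKM + 1) over the 10657 genes with a mean of at least 1 FPKM, at an adjusted p of 0.05 (Benjamini-Hochberg). A second fit used a mean of at least 0.1 FPKM and a pseudocount of 0.1, and it gives the log2 fold changes of members below 1 FPKM. Fold changes are manipulated minus untreated and understate low genes. Median-ratio scaling divided each library by its median ratio to the geometric mean, over all kept genes above 0 in all 6 libraries. Recovery of changed genes was tested on 5 simulated sets with 200 genes changed. Python 3.11.15, pandas 2.3.3 and matplotlib 3.10.9 were used for tables and figures.

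Replicates are separate rats; the labels give no batch or date. The members, their roles and the gene lists were chosen with earlier results of these data known. Named are the members listed by symbol in the rule, those reaching a mean of 1 FPKM, the 2 highest of each role, up to 5 in each direction with the largest difference among those whose groups do not overlap, and the 3 highest genes of each list, of which 1 is not reported here. Other members and genes named were chosen after their values were seen.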

Additional observations from a re-analysis of the deposited data

How the results depend on the processing

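No member passed an adjusted p of 0.05 in limma under any setting tried, whereas the number of all genes called was 38 in the reported fit, 20 with no filter on low values, 84 with a robust variance prior and 940 with weights per library, and 28 to 56 when 1 library was left out. The median log2 fold change of the 16 tested members, -0.21, was 0.15 with median-ratio scaling and -0.33 to -0.10 with 1 library left out. Settings that took in lower members changed the set of members as well. There the median was 0.011 with no filter, and 0.0039 over 48 members with a mean of at least 0.1 FPKM and a pseudocount of 0.1. The summed ratio over all members, 0.816, was 1.13 with median-ratio scaling and 0.757 to 0.882 with 1 library left out, and that of axonemal members, 0.981, was 1.39 and 0.919 to 1.07. Chosen after seeing the data, the scaled axonemal ratio with 1 library left out ran from 1.20 without manipulated replicate 6 to 1.49, and that of the remaining ciliary genes from 1.32 to 1.60 as deposited and from 1.66 to 2.36 scaled. Under median-ratio scaling the log2 fold changes turned to 0.21 for Cfap20, 0.18 for Cfap298, 0.016 for Cfap410, 0.21 for Cfap69, 0.20 for Enkur and 0.13 for Rsph1. With a mean of at least 0.1 FPKM, a pseudocount of 0.1 and that scaling together, an alternative chosen after seeing the data, they were 0.24, 0.20, 0.020, 0.26, 0.27 and 0.22 in the same order. With weights per library Cfap300 was at -0.047, Cfap69 at 0.012 and Cfap97 at 0.15, and Tekt1 was at -0.29 with a pseudocount of 0.1. With 1 library left out, Cfap69 ran from -0.34 to 0.15, Enkur from -0.24 to 0.022, Rsph1 from -0.28 to 0.082 and Tekt1 from -0.36 to 0.82. The cause was not tested, and none of these members passed the test in either direction. No paired analysis was possible because the replicate numbers of the labels name 6 different rats and no number is shared between groups. At this depth the deposited intervals were wide, with a median of 21.0% of the value on each side for members with a mean of at least 1 FPKM and 38.8% for those from 0.1 to 1.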
